A study of Mus musculus with 3 samples.

Results

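Crosslinks of the splicing regulator Tra2β were examined on the protamine and transition protein genes Prm1, Prm2, Prm3, Tnp1 and Tnp2 in adult mouse testis. The 5 genes were taken by name from the GENCODE vM39 annotation, out of 21757 nuclear protein-coding genes. The data were 3 iCLIP libraries, biological replicates of 1 group. They came from wild type adult testis with mixed cell types, from which cells were released by mincing and irradiated with ultraviolet light before pulldown with a polyclonal anti-Tra2b antibody. In iCLIP, ultraviolet light joins a protein to the RNA it touches and the end of each cDNA marks the joined nucleotide, so that here a crosslink is 1 unique cDNA at 1 nucleotide. No input, IgG, knockout or RNA-seq library was analysed here. Comparisons were therefore made within a library and per nt of mRNA, and more RNA, more cells of a type and more contacts per RNA molecule cannot be told apart.

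As spermatids elongate, histones leave the chromatin, transition proteins take their place for a time, and protamines then pack the DNA of the sperm head. Prm1 and Prm2 encode the arginine-rich protamines, Tnp1 and Tnp2 the transition proteins, and Prm3 a small acidic protein whose intronless gene lies in the same cluster. Their mRNAs are short and very abundant, are made in round spermatids, and are stored in ribonucleoprotein particles before they are translated in elongating spermatids. Tra2β is a nuclear protein that binds RNA rich in GAA.

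Prm1 (ENSMUSG00000022501.8), Prm2 (ENSMUSG00000038015.8), Prm3 (ENSMUSG00000050058.7) and Tnp2 (ENSMUSG00000043050.10) follow each other on the minus strand of chromosome 16, and Tnp1 (ENSMUSG00000026182.8) lies on the minus strand of chromosome 1 (GRCm39). The canonical transcripts were Prm1-201 (10614190 to 10614750), Prm2-201 (10609244 to 10609975), Prm3-201 (10608369 to 10608778), Tnp2-201 (10605747 to 10606524) and, on chromosome 1, Tnp1-204 (73054232 to 73055055). Their mRNAs measured 469, 627, 410, 607 and 436 nt. Prm3 has 1 exon and each of the others has 2 exons and 1 intron, of 92 nt in Prm1, 105 nt in Prm2, 388 nt in Tnp1 and 171 nt in Tnp2.

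The stretch of 30 nt with the most crosslinks in each mRNA is shown first, because it places the contacts in sequence. Each is written 5′ to 3′ on the minus strand, read from the GRCm39 genome, with GAA in capitals. They were chosen by their counts and carry no test.

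Prm1, 3′ UTR, exon 2, chr16:10614278-10614307: attttaccagacttcaagagcatctcgcca

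Prm2, 3′ UTR, exon 2, chr16:10609372-10609401: caagGAAgtcacttgcccaagGAAtagtca

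Prm3, CDS, exon 1, chr16:10608556-10608585: gaggagGAAGAAGAAGAAgagGAAgaggag

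Tnp1, CDS, exon 1, chr1:73054917-73054946: gaggtgGAAgcaagaGAAaataccgGAAga

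Tnp2, end of the CDS and start of the 3′ UTR, exon 2, chr16:10605928-10605957: ggcGAAgatacaagtgacgcactccaggat

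The Prm3 window was made of purines throughout and held 46, 5 and 88 crosslinks in replicates 1, 2 and 3, which is 39.6% of the crosslinks of that mRNA in 7.32% of its length. The Tnp1 window, 83.3% purine, held 29, 4 and 54 crosslinks, 17.9% of the total. In the other 3 windows purines made up 43.3% (Prm1), 60.0% (Prm2) and 63.3% (Tnp2), and the Prm1 window held no GAA. They held 10, 4 and 25 crosslinks in Prm1, 12, 1 and 25 in Prm2 and 30, 2 and 73 in Tnp2. The strongest windows thus differed in sequence and in place, lying in the CDS of Prm3 and Tnp1, at the stop codon of Tnp2 and in the 3′ UTR of Prm1 and Prm2.

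The libraries held 348033, 619571 and 488719 crosslinks in replicates 1, 2 and 3, of which 27.8%, 13.3% and 39.2% lay in canonical exons of protein-coding genes. A count of 0 allows up to 3 counts, or 8.62, 4.84 and 6.14 CPM, the count divided by the library total on the usual CPM scale. These limits and the 95% Clopper-Pearson intervals below cover counting error only. Replicate 2 stood apart by its low exonic share, so results that rest on it are given with and without it.

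The first question was whether these late mRNAs carried crosslinks at all. All 5 did in all 3 libraries, as did 35.0% of protein-coding genes, with 690, 148 and 1247 exonic crosslinks together, 2085 in all, over 2549 nt. This was 0.198% of the crosslinks of replicate 1 (0.184 to 0.214), 0.0239% of replicate 2 (0.0202 to 0.0281) and 0.255% of replicate 3 (0.241 to 0.270), with a mean of 0.159% ± 0.121 (SD, n = 3), or 0.227% without replicate 2. Among exonic crosslinks of protein-coding genes the share was 0.714%, 0.180% and 0.651%, whereas the 5 mRNAs make up 0.00334% of the exon length. They were thus crosslinked 214-, 53.9- and 195-fold above their share of exon length.

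Tnp2, which encodes transition protein 2, had the most exonic crosslinks, 233, 34 and 444 in replicates 1, 2 and 3, or 669, 54.9 and 908 CPM. Tnp1, for transition protein 1, had 155, 25 and 305, or 445, 40.4 and 624 CPM. Prm3 had 128, 13 and 210, or 368, 21.0 and 430 CPM. In all 3 genes replicate 2 was the lowest by far, and replicates 1 and 3 were closer to each other.

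Prm2, which encodes the protamine that is made as a longer precursor, had 102, 43 and 168 exonic crosslinks, or 293, 69.4 and 344 CPM. Prm1 had 72, 33 and 120, or 207, 53.3 and 246 CPM. Replicate 2 was again the lowest, but by less than for Prm3, Tnp1 and Tnp2.

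To set the members against the other genes, crosslinks were scaled to the exonic crosslinks of protein-coding genes in the same library and divided by mRNA length (exonic CPM per kb). On this scale Tnp2 measured 3973, 680 and 3821 in replicates 1, 2 and 3 (mean 2825 ± 1859, SD, n = 3). Tnp1 measured 3680, 696 and 3654 (2677 ± 1715). Prm3 measured 3231, 385 and 2675 (2097 ± 1509). These densities in replicates 1 and 3 were all above those of both protamine genes.

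Prm2 measured 1684, 833 and 1400 exonic CPM per kb (1305 ± 433) and Prm1 1589, 854 and 1337 (1260 ± 373). The median over all protein-coding genes was 1.86, the 99th percentile was 170, and 37.0% of genes had no exonic crosslink in any library. The order of the mean densities was Tnp2, Tnp1, Prm3, Prm2 and Prm1, but each neighbour in it differed by less than the larger of their SDs over the libraries. Prm3 and Prm2 differed by more than the SD of Prm2. Replicates 1 and 3 both gave this order, and replicate 2 gave Prm1, Prm2, Tnp1, Tnp2 and Prm3.

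**Figure D1:**
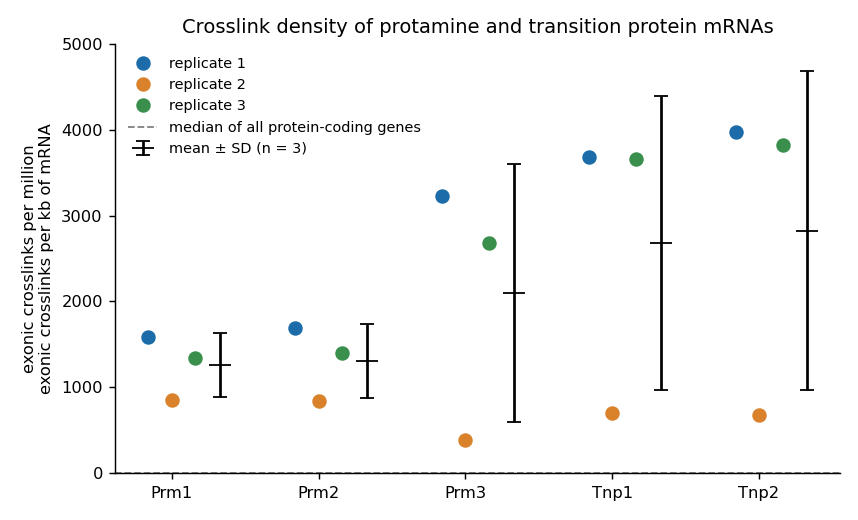
Exonic CPM per kb of mRNA (y axis) for each gene (x axis). Coloured points are the 3 libraries, black marks show the mean ± SD (n = 3), and the dashed line is the median of all protein-coding genes, 1.86. Replicate 2 is the lowest point of every gene, from 385 in Prm3 to 854 in Prm1.

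Each gene was then tested against its share of the exon length of all protein-coding genes, with a two-sided exact binomial test in each library and Benjamini-Hochberg adjustment over 21757 genes. Genes past an adjusted p of 0.05 one way in every library were called. All 5 genes were called higher, whereas 1173 genes, 5.39%, were called higher overall and 5.66% lower. For mRNAs this short only 0.442 to 1.57 crosslinks were expected per library, so that a call of lower could not be reached. Tnp2 was 304-, 52.0- and 292-fold above its expected count in replicates 1, 2 and 3, a log2 fold of 6.74 ± 1.59 (SD, n = 3; largest adjusted p 2.08e-43, exact binomial test).

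Tnp1 was 281-, 53.2- and 279-fold above its expected count, a log2 fold of 6.50 ± 1.56 (largest adjusted p 3.56e-32, exact binomial test). Prm3 was 247-, 29.4- and 204-fold above it, with 5.98 ± 1.85 (1.33e-13). Prm2 was 129-, 63.6- and 107-fold above it, with 5.95 ± 0.65 (1.34e-58), and Prm1 121-, 65.3- and 102-fold, with 5.76 ± 0.61 (2.70e-45). The excess was the same in direction in 3 of 3 libraries for each gene, and without replicate 2 the log2 folds were 7.65 for Tnp2, 7.40 for Tnp1, 7.04 for Prm3, 6.33 for Prm2 and 6.11 for Prm1. It compares crosslinks per nt of mRNA, and RNA levels were not measured.

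By mean density Tnp2 ranked 1, Tnp1 2, Prm3 4, Prm2 7 and Prm1 9 of 21757 protein-coding genes. Many of the Prm3 crosslinks lay in a stretch with copies elsewhere, described below, and without it Prm3 measured 1935, 252 and 1550 exonic CPM per kb. Its mean of 1246 ± 882 was then below those of both protamine genes, and it ranked 9. This order rests on replicate 2, where Prm2 had 833 and Prm1 854. In replicates 1 and 3 Prm3 stayed above Prm2 (1684 and 1400) and Prm1 (1589 and 1337). By exonic CPM without division by length the ranks were 29 for Tnp2, 66 for Tnp1, 132 for Prm3, 144 for Prm2 and 258 for Prm1. Length was therefore part of the rank per kb, and genes of similar length were looked at. Among 676 genes with an mRNA of at most 627 nt, the length of Prm2, 12 genes or 1.78% were called higher and the 5 members ranked 1 to 5. The next was Dbil5, which encodes a testis acyl-CoA-binding protein, at 660 exonic CPM per kb.

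**Figure D2:**
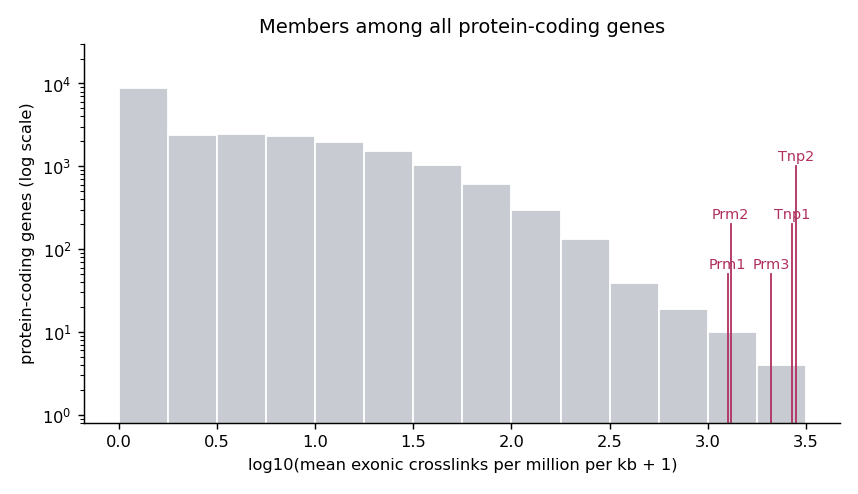
Mean exonic CPM per kb, as log10 of the value plus 1 (x axis), for 21757 protein-coding genes, counted per bin on a log scale (y axis). Vertical lines mark the 5 genes, which lie in the last bins of the distribution, with Tnp2 at rank 1 and Prm1 at rank 9.

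Within the 5 genes the composition changed between libraries. Prm1 and Prm2 together held 25.2%, 51.4% and 23.1% of the members' exonic crosslinks in replicates 1, 2 and 3. Their 95% Clopper-Pearson intervals were 22.0 to 28.6, 43.0 to 59.6 and 20.8 to 25.5. Replicate 2 was thus outside the counting error of the others. The share of Prm3 was 18.6%, 8.78% and 16.8% in the same order, that of Tnp1 22.5%, 16.9% and 24.5%, and that of Tnp2 33.8%, 23.0% and 35.6%. Across the marker lists, the summed exonic CPM of 5 spermatid markers was 1170, 352 and 878, and that of 5 spermatocyte markers 1335, 1335 and 1421. Replicate 2 was the lowest in 4 of the 5 spermatid markers and in 2 of the 5 spermatocyte markers, and no marker of either list was at 0. The share of all genes that were lowest in replicate 2 is not given here. The spermatid sum rests largely on Odf1, with 73, 7 and 92 crosslinks, and without it was 414, 267 and 397. Acr, an acrosomal protease gene, was nearly level at 114, 109 and 125. Among the spermatocyte markers, Hormad1 was highest in replicate 2 (51.8, 231 and 78.4) and Spag6 lowest (166, 48.6 and 88.8). The part of cell makeup in the lower values of replicate 2 was not tested.

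The labelled tissue was checked against the markers of other testis cells. The 5 Sertoli cell markers summed to 662, 389 and 366 exonic CPM and the 5 Leydig cell markers to 352, 291 and 230. Clu held 48, 13 and 54 of the 64, 32 and 70 crosslinks of the Sertoli list. Insl3 held 18, 0 and 21 of the 34, 24 and 44 of the Leydig list. The 5 spermatogonial markers summed to 104, 134 and 52.2, with Zbtb16 and Gfra1 at 1 crosslink each over the 3 libraries. No exonic crosslink lay in any of the 5 blood markers, of which the globin genes have close copies.

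The next question was whether the crosslinks lay in spliced or unspliced sequence, since Tra2β acts on splicing in the nucleus. The 4 genes with an intron held 562, 135 and 1037 crosslinks in 2139 nt of exon and 6, 5 and 9 in 756 nt of intron. Across all genes with an intron that could be tested in all 3 libraries, 21.1% of 10817 were called higher in exons and 0.00924% lower (two-sided exact binomial test by length, called as above). Of the 4 members 2 were called higher in exons, Tnp1 and Prm1.

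The Tnp1 intron held 2, 1 and 6 crosslinks against 155, 25 and 305 in the exons, a log2 fold of 5.03 ± 0.98 (SD, n = 3; largest adjusted p 3.22e-05, exact binomial test). The Prm1 intron held 0, 0 and 0 crosslinks. The limit of 3 counts in its 92 nt is 32.6 per kb in each library, so that the exons of Prm1 were at least 4.71-, 2.16- and 7.85-fold higher per nt in replicates 1, 2 and 3. Prm1 was called (largest of its adjusted p-values 0.0199, exact binomial test), but not when 10 nt at each end of the intron were left out (0.0677).

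The Prm2 intron held 2, 1 and 0 crosslinks and the Tnp2 intron 2, 3 and 3. Their log2 folds were 3.63 ± 1.92 and 3.78 ± 2.01 (SD, n = 3), higher in exons in 3 of 3 libraries. Neither was called, because the adjusted p in replicate 2 was 0.0638 for Prm2 and 0.144 for Tnp2 (exact binomial test). Without replicate 2 both were called, at 0.000194 and 4.11e-21. Prm2 was also called with all transcripts merged (log2 fold 2.62, largest adjusted p 0.00178).

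Within the mRNAs, the CDS of the 5 genes held 458, 104 and 809 crosslinks, or 66.4%, 70.3% and 64.9% of their exonic crosslinks in 53.3% of their length. The 3′ UTRs held 162, 30 and 313, or 23.5%, 20.3% and 25.1% in 31.6% of the length. The 5′ UTRs held 70, 14 and 125, from 9.46% to 10.1% of the crosslinks in 15.1% of the length. These sums mix genes whose weights differed between libraries. Within single genes the CDS share was 42.2%, 62.8% and 39.9% in Prm2, 72.3%, 84.0% and 67.5% in Tnp1, 68.2%, 85.3% and 70.0% in Tnp2 and 88.3%, 100% and 91.4% in Prm3, highest in replicate 2 in these 4 genes, and 43.1%, 42.4% and 27.5% in Prm1.

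**Figure D3:**
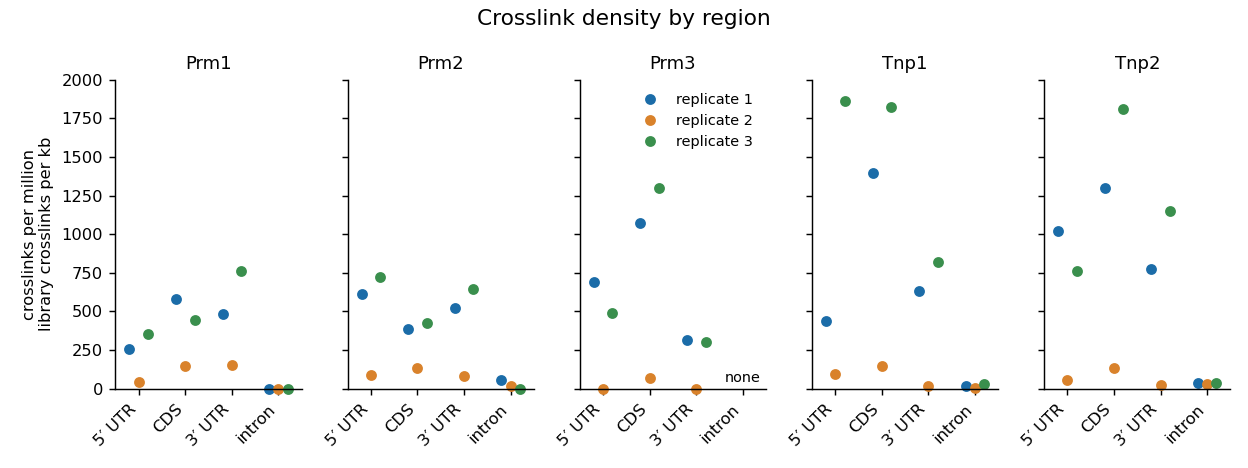
CPM per kb, scaled to the library total (y axis), in the 5′ UTR, CDS, 3′ UTR and intron of each gene (x axis), with 1 point per library. Introns lie low on this scale, from 0 in Prm1 to 54.7 in replicate 1 of Prm2. In replicate 2 the Tnp2 intron (28.3) is above the Tnp2 3′ UTR (24.6). The CDS is above both UTRs in each library for Prm3 and Tnp2 but not for Prm1, Prm2 or Tnp1. In Tnp1 the exception is replicate 3, where the 5′ UTR, with 30 crosslinks in 33 nt, measures 1860 and the CDS 1825.

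Gene by gene, 2 of the 5 were called higher in the CDS than in the UTRs, against 4.59% of 7618 genes overall (0.0131% were called lower). Tnp1 held 112, 21 and 206 crosslinks in the CDS and 43, 4 and 99 in the UTRs, a log2 fold of 1.39 ± 0.62 (SD, n = 3; largest adjusted p 0.0263, exact binomial test). These counts depend on the CDS of Tnp1-204, which has 77 codons. With Tnp1-201 as its transcript, a setting chosen after seeing the data, the log2 fold was 1.79 (largest adjusted p 0.0187, exact binomial test). Tnp2 held 159, 29 and 311 in the CDS and 74, 5 and 133 in the UTRs, with 1.13 ± 0.73 (0.0236). Both calls were lost when the last 30 nt of each mRNA were left out, with log2 folds of 1.16 and 0.95 and largest adjusted p of 0.0712 and 0.207. These 30 nt held no crosslink in either gene. When the stretches described below that have copies elsewhere in the genome were left out, 1 gene was called and Tnp2 was not (log2 fold 0.87, largest adjusted p 0.397).

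Prm3 held 113, 13 and 192 crosslinks in the CDS and 15, 0 and 18 in the UTRs, with a log2 fold of 2.17 ± 0.97 (SD, n = 3). It was not called, since the adjusted p was 0.178 in replicate 2, against 0.00282 and 9.33e-09 in replicates 1 and 3 (exact binomial test). Without the copied stretch of its CDS the log2 fold was 1.47 (largest adjusted p 0.821). Prm1 held 31, 14 and 33 in the CDS and 41, 19 and 87 in the UTRs, and Prm2 43, 27 and 67 against 59, 16 and 101. Their log2 folds were 0.31 ± 0.56 (largest adjusted p 0.706, exact binomial test) and -0.17 ± 0.73 (0.553). The sign of both differed between libraries, and no difference between CDS and UTRs was called for either protamine gene on the canonical transcripts. With all transcripts merged and CDS placed before UTR, both were called higher in the CDS. The log2 folds were 1.91 for Prm1 (largest adjusted p 0.00100, exact binomial test) and 3.11 for Prm2 (2.00e-14). Merging adds upstream exons of longer transcripts, so these folds do not describe the canonical mRNAs alone. In replicates 1, 2 and 3 such exons of Prm2 held 3.66, 6.10 and 8.53 crosslinks per kb in 2461 nt. The canonical Prm2 mRNA held 163, 68.6 and 268 per kb. The 8953 nt upstream of the canonical Prm1 start, which longer Prm1 transcripts span, held 0, 0 and 0 crosslinks. The part of these stretches in both calls was not tested.

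The profile along each mRNA showed where the crosslinks began and ended. In Prm1 the first 61 nt of the model held none in any library, whereas in Prm3 and Tnp2 the first nt was crosslinked. The last 26 nt of Prm1, 17 nt of Prm2, 28 nt of Prm3, 38 nt of Tnp1 and 72 nt of Tnp2 held none. How well reads this close to an mRNA end can be mapped was not tested. In Tnp2 these nt include positions 566 to 607, which have copies elsewhere, as described below. In all, 999 of 2549 nt were crosslinked in at least 1 library, 273 in exactly 2 and 28 in all 3. Of these 28 nt, Tnp2 held 11, Prm3 7, Tnp1 6, Prm2 3 and Prm1 1.

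**Figure D4:**
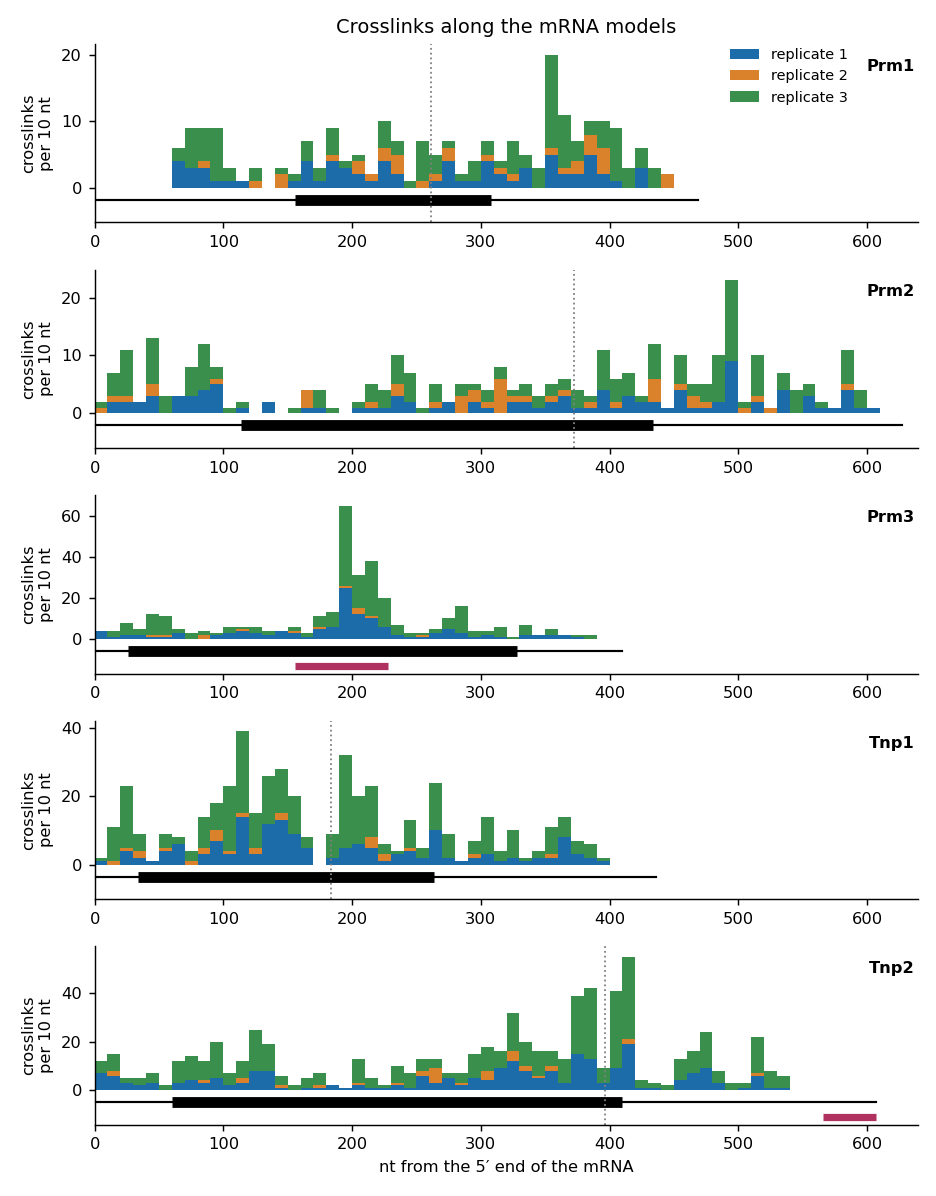
Crosslinks per 10 nt (y axis), stacked by library, along the mRNA from its 5′ end (x axis). The thin line is the mRNA, the thick black bar the CDS, the dotted line the exon junction, and the red bar spans the first to the last nt of a stretch with close copies elsewhere in the genome. Crosslinks are spread along Prm1 and Prm2, and rise over the purine repeat of Prm3, which holds 39.6% of that gene's crosslinks in 30 nt.

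The purine repeat of Prm3 is present elsewhere in the genome. In a search of the genome with each mRNA, Prm1, Prm2 and Tnp1 had no hit elsewhere, and Prm3 had 225, over 73 nt of the CDS (mRNA positions 156 to 228). This stretch held 65, 6 and 110 of the Prm3 crosslinks, or 50.8%, 46.2% and 52.4%, and includes the strongest window. How multi-mapping reads were treated was not given in the sources used here, so the origin of these crosslinks is uncertain. The other 337 nt held 63, 7 and 100 crosslinks, or 187, 20.8 and 297 per kb. Without the stretch the log2 fold of the Prm3 density was 5.15 and the gene remained called (largest adjusted p 3.05e-06, exact binomial test).

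In Tnp2 the search gave 413 hits elsewhere, which covered 42 nt at the 3′ end of the mRNA (positions 566 to 607). This stretch held 0, 0 and 0 crosslinks, which allows up to 3 in each library. Whether reads from it were kept in mapping is not known, for the reason given for Prm3. With it left out, the log2 fold of the Tnp2 density was 6.80.

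At the crosslinked nucleotide, G was more frequent than in the mRNA for Prm3, with 60.2%, 61.5% and 68.1% of crosslinks in replicates 1, 2 and 3 against 33.4% of nt. In Tnp1 G made up 45.2%, 44.0% and 41.0% of crosslinks against 26.6% of nt. Over all protein-coding exons it was 29.4%, 28.4% and 29.0% against 24.3%, and T was the most frequent base, with 39.9%, 33.1% and 40.5% against 25.4%. In Prm1, Prm2 and Tnp2 T was above its share of nt in each library. It made up 26.4%, 27.3% and 26.7% against 17.3% in Prm1, and 23.5%, 25.6% and 21.4% against 13.9% in Prm2. In Tnp2 it made up 27.5%, 38.2% and 26.1% against 15.5%. G was also above its share in these genes, except in replicate 2 of Tnp2 (20.6% against 25.4%). Within the copied stretch of Prm3 the first codon position, a G in both GAG and GAA codons, held 67.7%, 83.3% and 73.6% of crosslinks, and in the rest of its CDS 31.2%, 42.9% and 43.9%. The single nucleotide with the most crosslinks in the members was a G of this repeat (mRNA position 200), with 11, 0 and 19.

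GAA, the core of the sequences that Tra2β is known to bind, was searched on the mRNA strand, with overlapping motifs counted. Prm3 had 36.6 GAA per kb, above 97.7% of protein-coding mRNAs, and Tnp1 27.5, above 88.1%. Prm1 had 19.2, Tnp2 18.1 and Prm2 14.4, all below the median of 19.8. GAAGA occurred 8 times in Prm3, 19.5 per kb, above 99.98% of mRNAs. By this longer motif the order of the others differed, with 6.40 per kb in Prm1 (above 96.5%), 4.94 in Tnp2 (above 91.6%), 2.29 in Tnp1 (above 51.4%) and 1.59 in Prm2 (above 28.4%). At least 1 GAA was held by 99.9% of mRNAs and at least 1 GAAGA by 96.3%, so that presence alone separates few genes. AGAAG, held by 96.5% of mRNAs, was absent from Prm1, Tnp1 and Tnp2. It occurred at 3.19 per kb in Prm2 (above 73.5%) and 9.76 in Prm3 (above 99.6%). AAGAA, held by 95.6%, was absent from Prm1 and Prm2. It measured 12.2 per kb in Prm3 (above 99.7%), 2.29 in Tnp1 (above 51.0%) and 1.65 in Tnp2 (above 32.1%).

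Nucleotides within 10 nt of a GAA held 64.8%, 61.5% and 64.3% of the Prm3 crosslinks in replicates 1, 2 and 3 against 48.5% of its nt, and 55.5%, 60.0% and 53.4% of those of Tnp1 against 46.3%. The shares were 36.1%, 44.1% and 34.5% against 31.6% in Tnp2, 37.5%, 54.5% and 59.2% against 43.1% in Prm1 and 40.2%, 23.3% and 36.3% against 29.8% in Prm2. They were above the share of nt in 3 of 3 libraries for Prm3, Tnp1 and Tnp2, and below it in replicate 1 for Prm1 and in replicate 2 for Prm2. Over all protein-coding exons 51.3%, 57.8% and 51.7% of crosslinks lay this close to a GAA, against 37.0% of nt.

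Inside GAA itself lay 25.0%, 30.8% and 22.9% of the Prm3 crosslinks against 11.0% of its nt. Over all exons the shares were 8.06%, 7.48% and 9.16% against 6.14%. The strongest Prm3 window, in the repeat with copies elsewhere, holds 5 of the 15 GAA of this mRNA. In Tnp2, the member with the most crosslinks, 3.43%, 2.94% and 5.63% lay in GAA against 5.44% of nt. These shares are descriptions and were not tested.

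Outside the mRNA models the crosslinks fell steeply. The 100 nt downstream of each of the 5 genes held no crosslink on the gene strand in any library. The 8953 nt upstream of the Prm1-201 start, which longer annotated Prm1 transcripts span, held 0, 0 and 0 on the gene strand, which allows up to 3 in each library. Antisense to the transcripts lay 2, 3 and 2 crosslinks in Prm1, 2, 0 and 0 in Prm2, 1, 0 and 1 in Tnp2, and none in Prm3 or Tnp1.

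Between the canonical transcripts of the cluster, crosslinks on the gene strand were sparse. Most of the 4214 nt from Prm1-201 to Prm2-201 lie within the annotated Prm2 gene, in exons and introns of its longer transcripts. These 4214 nt held 17, 25 and 30, or 4.03, 5.93 and 7.12 per kb, compared with 154, 70.4 and 256 per kb in the Prm1 mRNA. The 465 nt from Prm2 to Prm3 held 1, 0 and 9, and the 1844 nt from Prm3 to Tnp2 held 2, 1 and 11. Within 300 nt upstream of Tnp2 lay 1, 1 and 11 crosslinks and upstream of Prm3 1, 0 and 9, most of them in replicate 3. The neighbouring gene Socs1, a suppressor of cytokine signalling, held 0, 3 and 1 in 3383 nt of exon.

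**Figure D5:**
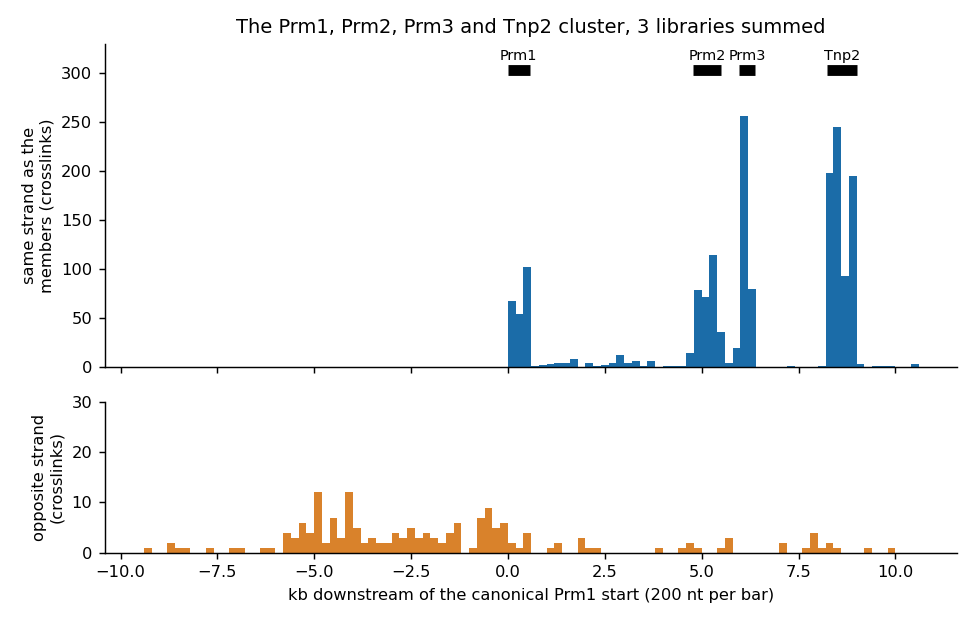
Crosslinks per 200 nt, summed over the 3 libraries (y axes), by distance downstream of the Prm1-201 start in kb (x axis), on the strand of the members (top) and on the opposite strand (bottom, its own scale). Black bars mark the canonical transcripts. Crosslinks of the members' strand gather within the 4 transcripts, with 257 in the highest bar over Prm3, and the opposite strand shows a low spread upstream of Prm1.

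The members were compared with other genes of the same process. Of 20 regulators of histone replacement and of protamine mRNA, 17 had exonic crosslinks in all 3 libraries and 11 were called higher by the density test (5.39% of all genes), none lower. The median was 57.2 exonic CPM per kb (range 2.43 to 672), against 1.86 over all genes. Ybx3, which encodes a Y-box protein that binds RNA, was the highest at 672 ± 404, with 119, 34 and 339 crosslinks, and its relative Ybx2, a storage factor of spermatid mRNAs, had 178 ± 104 with 21, 41 and 34 (SD, n = 3). The chromatin remodeller Chd5 had 344 ± 104 and Phf7, a histone ubiquitin ligase of spermatids, 327 ± 233. The others called were Crem, Brdt, Psme4, Kdm3a, Hspa2, Papolb and Hspa4l. All were below the 1260 of Prm1. This list and those below were chosen with earlier results of these data known. The 5.39% is over all genes, of which 37.0% had no exonic crosslink in any library. The shares called in these lists are therefore descriptions.

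Of 10 germ cell histone genes, 9 had crosslinks in all 3 libraries (35.0% of all genes) and 2 were called higher (5.39% of all genes) and none lower, the former being the linker histone genes H1f1 (13, 22 and 46) and H1f7 (25, 10 and 39). The median of this list was 86.7 exonic CPM per kb. Of 20 other late spermatid mRNAs, all had crosslinks in all 3 libraries (35.0% of all genes) and 12 were called higher (5.39% of all genes) and none lower, with a median of 166 and a maximum of 980. The highest was Smcp, which encodes a protein of the sperm mitochondrial capsule, with 118, 21 and 211 crosslinks. The others called were Odf1, Odf2, Oaz3, Akap4, Gapdhs, Tssk3, Cabs1, Gsg1, Capza3, Dbil5 and Meig1. The mean density of each member was above those of all 20. This list summed to 11147, 3327 and 10630 exonic CPM in replicates 1, 2 and 3, and 16 of its 20 genes were lowest in replicate 2. The share of all genes lowest in replicate 2 is not given here. Odf1 and Tssk6 are also among the spermatid markers. The regulators (12814, 6459 and 14166) and histones (859, 607 and 778) also summed lowest in replicate 2. The sums of the spermatocyte, spermatogonial, Sertoli and Leydig markers given above were not lowest there.

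The genes most like each member in exonic CPM over the 3 libraries were found by Euclidean distance of log2(exonic CPM + 1). For Prm1 they were R3hdm1 (distance 0.12), Cage1 (0.24) and Cfap69 (0.26). For Prm2 they were Ddx4 (0.20), Ahctf1 (0.20) and Suco (0.28), for Prm3 Cabs1 (0.30), Hspa5 (0.41) and Cep295nl (0.43), for Tnp1 Tax1bp1 (0.17), Cep85l (0.34) and Calr (0.41), and for Tnp2 Ipo5 (0.22), Fxr1 (0.33) and Knop1 (0.35). No member was among the nearest genes of another, and 15 of these 15 genes had longer mRNAs, from 1505 nt (Cabs1) to 8506 nt (Ahctf1). The likeness is over 3 libraries and is a description.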

How the data were processed

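Crosslink maps of 3 Tra2β iCLIP libraries of adult wild type mouse testis were used. Per the methods, the authors ran the iMAPS pipeline, and the deposited values are whole-number counts of unique cDNAs per crosslinked nucleotide and strand, neither normalised nor pooled. The submitters' processing notes name mm39, which is GRCm39, and Trim Galore 0.6.7, Bowtie 1.3.1, STAR 2.7.9a and UMI-tools 1.1.2. The treatment of reads mapping to several places was not given in the sources used here. Names and positions were checked against GRCm39 and 0 groups lay outside it.

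Counts were summed on the gene strand over canonical GENCODE vM39 transcripts, with the stop codon in the 3′ UTR, using Python 3.11.15, numpy 2.4.6 and scipy 1.17.1. Exact binomial tests by length ran over all genes in each library, with Benjamini-Hochberg adjustment and a threshold of 0.05, and were tested on simulated data. Since each library was tested alone, the p-values cover counting error, and agreement in all 3 libraries stands for the replicate check. Log2 folds used 0.5 added crosslinks. Copies were sought with blastn 2.17.0 (word size 28, identity of at least 85%). The described genes were the 5 members, the called genes of the lists, the neighbours and the 3 nearest genes in level. Members and lists were chosen with earlier results of these data known.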

Additional observations from a re-analysis of the deposited data

Results flagged for a closer look

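Crosslinks outside the canonical transcripts were singled out in 2 places. On the strand opposite to Prm1, the 8953 nt upstream of the Prm1-201 start held 39, 52 and 47 crosslinks in replicates 1, 2 and 3, 138 in all, while the gene strand held 0, 0 and 0 there. The densities were 4.36, 5.81 and 5.25 per kb, and replicate 2 was not the lowest. An annotated lncRNA of that strand, Gm46563, held 14, 18 and 14 crosslinks in exons and 40, 58 and 44 in introns.

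The upstream exons that belong to other Prm2 transcripts held 9, 15 and 21 crosslinks in 2461 nt, 45 in all, or 3.66, 6.10 and 8.53 per kb. The upstream introns of the same gene held 8, 10 and 9 in 1609 nt, or 4.97, 6.22 and 5.59 per kb. These values were not tested against each other, and no control library was analysed here.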

How the results depend on the processing

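The 5 members were called higher in exon density under every alternative run: all transcripts merged, positions counted once, the last 30 nt left out, positions in 1 gene only, genes with an exonic crosslink only, each replicate left out, and, chosen after seeing the data, Tnp1-201 for Tnp1 and stretches with copies elsewhere left out. Their mean share of a library ranged from 0.111% to 0.227% when 1 replicate was left out. The count of members higher in exons than introns, 2, became 3 with all transcripts merged (Prm2 added), 1 without the splice site edges and 2 to 4 with 1 replicate left out (4 without replicate 2). The count higher in the CDS, 2, became 4 with all transcripts merged (Prm1 and Prm2 added), 1 with positions counted once (Tnp2 lost), 1 without copied stretches, 0 without the last 30 nt, and 2 to 3 with 1 replicate left out. The Prm2 log2 fold of CDS over UTRs turned from -0.17 to 3.11 with all transcripts merged (called), 0.00518 without replicate 1 and 0.0735 without replicate 3, and was -0.59 without replicate 2. The causes were not tested. For Prm1 and Prm2, merging adds upstream exons of longer transcripts, where crosslinks were few or absent, as given above. Over all genes, lower calls in density rose from 1231 to 1958 with all transcripts, 1923 among genes with crosslinks and 3016 without replicate 2. Calls higher in the CDS rose from 350 to 685 with all transcripts, 583 without replicate 1 and 606 without replicate 2, and calls higher in exons over introns from 2279 to 3494 without replicate 2. Short introns and UTRs with few counts in replicate 2 limit the tests within genes. No paired analysis was possible because the labels give 1 group.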
